A study of Mus musculus with 9 samples.

Results

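The relaxin receptors *Rxfp1*, *Rxfp2* and *Rxfp3* are described here in spinal cholinergic neurons of the adult mouse. These 3 genes, of 21457 features measured, were taken by name and chosen by their measured levels, the higher lumbar/sacral level of *Rxfp1* in visceral motor neurons (MNs) and of *Rxfp2* in interneurons. Those differences are therefore given as descriptions without a test. Spinal cords came from 12 mice aged 8 weeks of the strain Chat-IRES-Cre::Sun1-sfGFP, heterozygous for both alleles (Chat-iCre:+/wt; SUN-SfGFP:+/wt), and nuclei positive for GFP and DRAQ5 were sorted for droplet sequencing. All groups carried both alleles and none was treated, and the Cre driver labels every cell that has used the *Chat* promoter, also in the past. Mice were pooled 4 at a time, as 2 males with 2 females in replicate 1, 4 males in replicate 2 and 4 females in replicate 3. Each pool was cut into cervical, thoracic and lumbar/sacral cord, which gives 9 libraries, 3 to a region.

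Relaxin family peptides are small insulin-like hormones. *Rxfp1* encodes the receptor for relaxin and *Rxfp2* the receptor for insulin-like peptide 3, and both are leucine-rich repeat receptors that mostly raise cyclic AMP through the stimulatory G protein. *Rxfp3* encodes the structurally different receptor for relaxin-3, which couples to inhibitory G proteins and is best known from the brain. Relaxin is known for its action on the reproductive tract, connective tissue and vessels, and insulin-like peptide 3 for the descent of the testis. Visceral MNs are the preganglionic neurons of the autonomic system, which at lumbar and sacral levels serve the bladder, bowel and sexual organs.

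The deposited values are corrected counts made by a model, so they are treated as scores. For each library, the values of all nuclei in a class or cluster were added up and scaled to 1000000 (CPM), where there were at least 10 nuclei. Classes and the 21 clusters (S1 to S3 skeletal, V1 to V10 visceral, I1 to I8 interneurons) are the authors' own. The matrix held 16042 nuclei, between 747 and 2825 in a library, and the median total of a nucleus ran from 4712 to 16127 corrected counts. In each pool the lumbar/sacral library had the lowest median total (4712, 7175 and 5701 in replicates 1, 2 and 3). There were 66 nuclei (0.411%) that carried a barcode also found in another library. In replicate 2, Hox genes, which mark position along the body axis, ran opposite to replicates 1 and 3 between the libraries labelled cervical and thoracic. *Hoxa9*, listed as a gene of thoracic cord and below, was higher in those labelled thoracic 1, thoracic 3 and cervical 2 than in the others (values given with V4 below). *Hoxc5*, listed as rostral, also set replicate 2 apart, but by itself does not say which labels are right. *Hoxc5* was at 25.4, 73.3 and 22.5 CPM in the libraries labelled cervical 1, 2 and 3 and at 85.3, 13.9 and 84.2 CPM in those labelled thoracic. *Hoxd11*, a gene of the caudal body, was at 0 in all 6 of these libraries and at 27.3, 31.0 and 23.0 CPM in lumbar/sacral 1, 2 and 3. Comparisons of lumbar/sacral with both other regions combined do not depend on which of the other labels is right. The sections below therefore write "the library labelled" wherever cervical and thoracic are set apart.

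*Rxfp1* (ENSMUSG00000034009) lies on the minus strand at chr3:79641611-79737880 of GRCm38, has 18 exons and spans 96.3 kb. A sense intronic transcript within it, *Gm26984*, was not analysed here. *Rxfp2* (ENSMUSG00000053368) lies on the plus strand at chr5:150018675-150082184, also has 18 exons and spans 63.5 kb. It overlaps an antisense gene, *Gm42557*, which held 68 corrected counts in all nuclei. *Rxfp3* (ENSMUSG00000060735) lies on the minus strand at chr15:11033717-11037991 and is a single exon of 4.28 kb. Nuclear reads from introns were counted, which favours long genes, so levels of the receptors are not compared with each other. Of the 3 receptors, 2 matched an entry among RefSeq promoter windows (GRCm38.p6). The 250 bases before the start of *Rxfp2*, chr5:150018425-150018674 on the plus strand, are shown because *Rxfp2* is the receptor that was highest in 1 interneuron cluster, with CG dinucleotides in capitals.

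Rxfp2: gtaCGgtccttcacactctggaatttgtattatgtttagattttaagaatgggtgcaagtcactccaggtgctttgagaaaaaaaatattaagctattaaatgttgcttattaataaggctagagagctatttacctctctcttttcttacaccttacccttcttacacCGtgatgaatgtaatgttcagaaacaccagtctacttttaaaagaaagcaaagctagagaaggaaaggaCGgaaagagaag

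This window is poor in G and C (36%), and 5.81% of the 32851 windows of the same length were lower. It held 3 CG dinucleotides, against a median of 6. The letters TTTAT were searched on both strands, and 37.3% of all windows held them. The letters TGACG were held by 17.8%, and TATAA, which can overlap the first motif, by 22.8%. The *Rxfp2* window held none of these.

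*Rxfp1* had a corrected count in 900 of 16042 nuclei (5.61%, 95% Wilson interval 5.26 to 5.98), and 496 of these (55.1%) held at least 2. *Rxfp2* had one in 269 nuclei (1.68%), of which 78 held at least 2. *Rxfp3* had a single corrected count in each of 8 nuclei. These intervals cover counting error only. Of the *Rxfp1* nuclei 738 (82.0%) were lumbar/sacral, although that region gave 6139 of the nuclei. Of the *Rxfp2* nuclei 156 (58.0%) were lumbar/sacral. No call of doublets was made on these nuclei.

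In visceral MNs, *Rxfp1* was at 278, 144 and 246 CPM in lumbar/sacral 1, 2 and 3. It was at 5.42, 3.79 and 4.55 CPM in the libraries labelled cervical and at 2.50, 5.54 and 2.82 CPM in those labelled thoracic. The lowest lumbar/sacral value is thus far above the highest of the others, and the groups do not overlap. The means were 223 ± 69.9 CPM (SD, n = 3) and 4.10 ± 1.29 CPM (n = 6), a ratio of 54.3. On the scale of log2(CPM + 5) the difference was 4.61, the highest of the 10031 genes tested in visceral MNs, and it chose the gene. In the same contrast 428 of 10031 genes (4.27%) passed an adjusted p of 0.05 in limma, 233 higher (2.32%) and 195 lower (1.94%). With a term for the pool of mice that count was 737. The share of visceral nuclei with a count was 43.0% ± 6.01 in lumbar/sacral libraries and 2.22% ± 0.426 in the others, although the lumbar/sacral nuclei were shallower (library medians of 4742 to 7036 against 7016 to 16167 corrected counts). After every nucleus was thinned to 3200 corrected counts, the shares were 35.9% and 0.907%. In lumbar/sacral interneurons of the same libraries, with median totals of 4268 to 6771, the share was 1.22% ± 0.164.

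**Figure D1:**
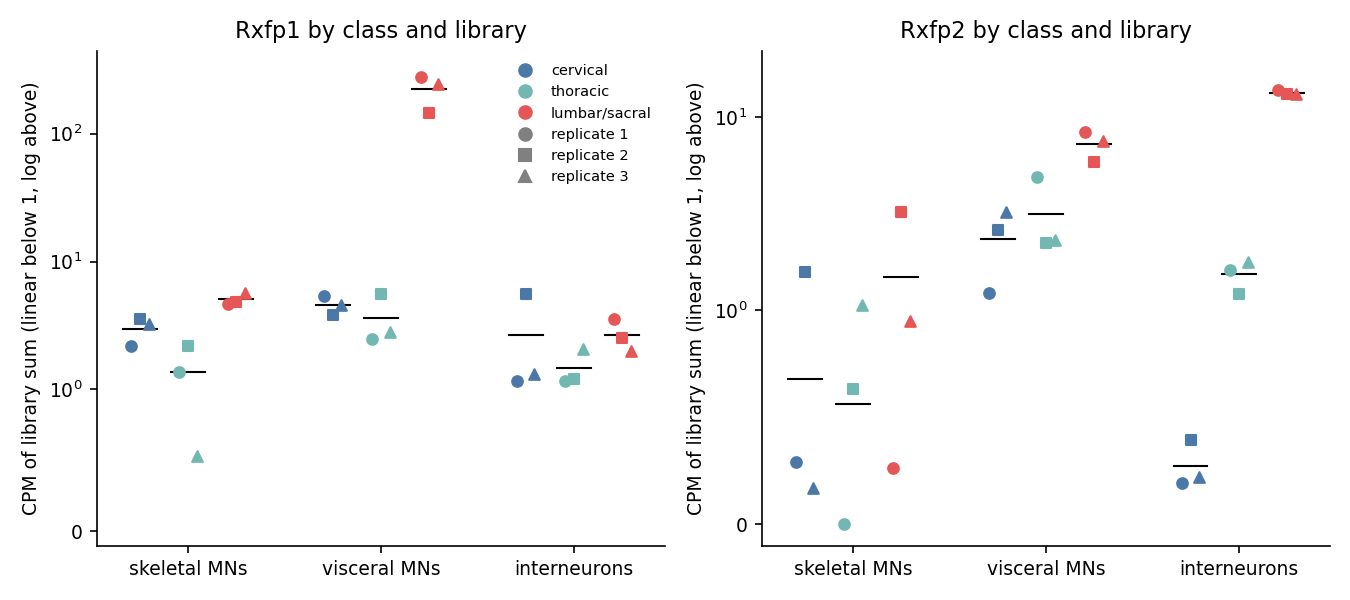
Levels of *Rxfp1* (left) and *Rxfp2* (right) in CPM, on an axis that is linear below 1 and logarithmic above, for each class, region (colour) and replicate (symbol). Black lines are means of 3 libraries, and the lumbar/sacral visceral MNs (*Rxfp1*, 144 to 278 CPM) and interneurons (*Rxfp2*, 13.1 to 13.8 CPM) lie above all other libraries of their class.

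Among clusters of the lumbar/sacral libraries, *Rxfp1* was highest in V8, at 520, 354 and 478 CPM in replicates 1, 2 and 3 (451 ± 86.4), and 82.6% ± 4.42 of V8 nuclei held a count. V8 had 463 nuclei there and 4 elsewhere. V6 followed at 567 and 308 CPM in replicates 1 and 2, from 13 and 10 nuclei. V3 was at 410, 191 and 322 CPM, and V2 at 149, 82.4 and 244 CPM. V5 was lower, at 61.6, 23.9 and 87.8 CPM. V8 and V6, and V6 and V3, did not differ beyond their spread, whereas the steps from V3 to V2, from V2 to V5 and from V5 to S2 (10.6 ± 6.92 CPM) were larger than the larger SD of each pair. All remaining clusters lay at or under 10.4 ± 2.22 CPM, the level of I2. V8 alone held 1119 of the 2153 *Rxfp1* counts (52.0%), and V2, V3, V6 and V8 of the lumbar/sacral cord held 80.2%.

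**Figure D2:**
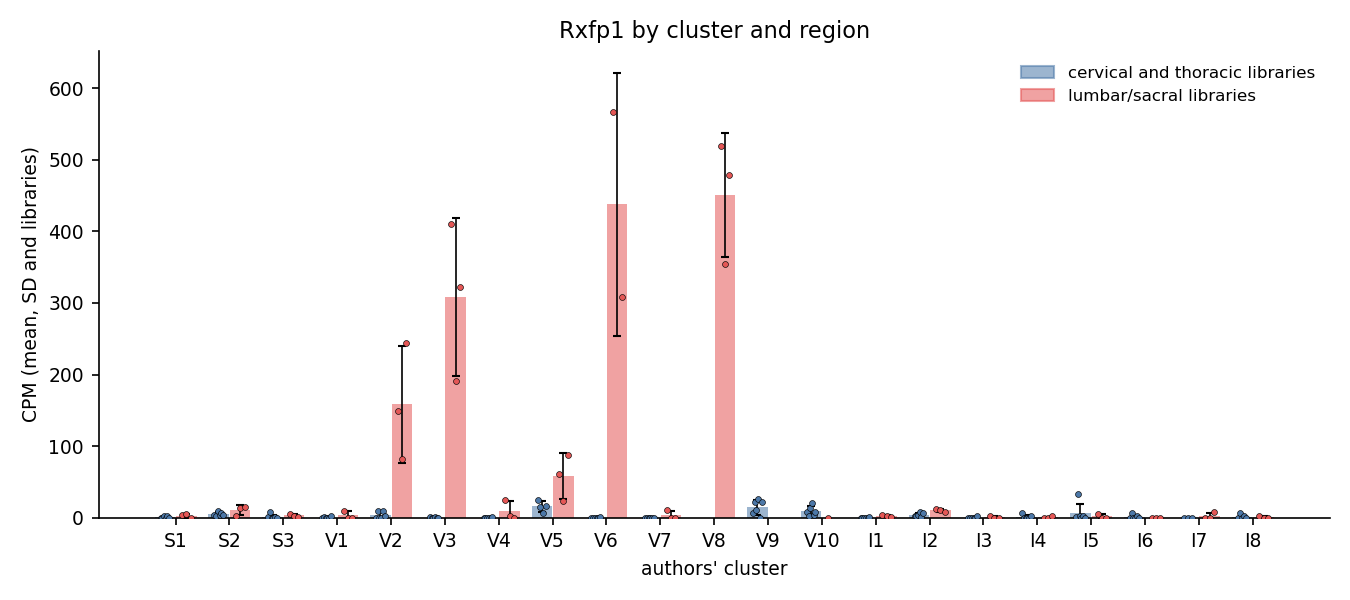
*Rxfp1* in CPM (linear axis from 0) in each of the authors' clusters, for cervical and thoracic libraries together and for lumbar/sacral libraries. Bars are means, error bars SD, and points single libraries of at least 10 nuclei; V8, V6, V3 and V2 stand out in lumbar/sacral cord and V2, V3 and V6 have means under 4 CPM in the other regions.

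V2, V3 and V6 are also found in the cervical and thoracic cord, where they held almost no *Rxfp1*. In lumbar/sacral cord 221 of 489 nuclei of these clusters had a count, against 11 of 1586 in the other regions. V3 had 2 positive nuclei of 497 outside the lumbar/sacral cord, a mean of 0.349 CPM. V2 was at 3.64 ± 4.96 CPM there, of which 10 of 15 counts came from 2 nuclei of the library labelled cervical 2. The within-pool difference, lumbar/sacral minus the mean of the other libraries of the same mice, was positive in all 3 pools for V2 (155 ± 85.5 CPM) and for V3 (307 ± 110 CPM). Other genes also differed between the places within these clusters, without a test. In V2, *Gpc3*, a glypican, was at 4.75 ± 1.68 CPM in lumbar/sacral libraries and at 198 ± 65.4 CPM elsewhere. In V3, *Adra1a*, the alpha-1A adrenergic receptor, was at 102 to 150 CPM in lumbar/sacral libraries and at 4.98 ± 2.36 CPM elsewhere. The visceral marker *Fbn2*, a fibrillin, was at 1247 ± 129 and 649 ± 117 CPM in V3 of the same places. In V6, *Fbn2* was at 1225 ± 696 CPM in 2 lumbar/sacral libraries and at 75.2 ± 22.9 CPM elsewhere. *Adra1a* in V6 was at 522 ± 407 and 2.95 ± 2.17 CPM, whereas the visceral marker *Zeb2* was at 475 ± 153 and 447 ± 86.4 CPM. Leaving V8 out of the visceral sums, chosen after the values were seen, left a log2 difference of 3.75, and leaving out V8 and V9 left 3.93.

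Outside the lumbar/sacral cord the highest levels of *Rxfp1* were in V5 (16.0 ± 7.80 CPM, n = 4), V9 (14.8 ± 10.1, n = 6) and V10 (9.58 ± 6.52, n = 6), which did not differ beyond their spread. The share of V5 nuclei with a count was 7.23% ± 0.537 there and 17.8% ± 3.91 in lumbar/sacral libraries. V1, V4 and V7 had little in either place, and V4 was at 9.29 ± 13.8 CPM in lumbar/sacral libraries, most of it in replicate 1.

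Within lumbar/sacral V3, nuclei with and without *Rxfp1* were set side by side in each library, where their median totals were nearly equal (4530 and 4515, 6546 and 6286, 4866 and 4780). *Adra1a* had a count in 50%, 38.9% and 42.9% of nuclei with *Rxfp1* in replicates 1, 2 and 3, and in 5.56%, 7.69% and 6.67% of those without. *Hoxd11* was found in 17.9%, 30.6% and 14.3% against 2.78%, 5.13% and 3.33%. *Nos1*, neuronal nitric oxide synthase, was found in 67.9%, 75.0% and 64.3% against 36.1%, 53.8% and 36.7%. These 3 genes were more frequent beside *Rxfp1* in each library, as was *Sst* by 1.59 to 17.9 percentage points. Of the other 3 genes compared, *Penk* was less frequent in each library (5.36%, 2.78% and 3.57% against 5.56%, 20.5% and 10%), *Zeb2* differed in sign between libraries, and *Fbn2* was in 96.7% or more of both kinds. In V2, *Adra1a* was again more frequent with *Rxfp1* (41.7%, 66.7% and 24.0% against 24.7%, 14.6% and 9.09%), *Hoxd11* was so in replicates 1 and 2 only, and *Nos1* was less frequent in each library (50%, 61.1% and 60% against 65.9%, 79.2% and 68.2%). Nuclei of 1 library share their mice, so these are descriptions.

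In V8, *Adra1a* was at 296 ± 25.4 CPM, *Penk*, the precursor of enkephalin, at 445 ± 184 CPM and *Sst*, somatostatin, at 385 ± 87.0 CPM. V8 had *Chat* at 143 ± 9.67 CPM and *Fbn2* at 1172 ± 264 CPM, and its *Zeb2* was at 7.79 ± 3.99 CPM, against 519 ± 7.18 CPM in lumbar/sacral V3. Among markers of other cells, the astrocyte list (4 genes) summed to 31.3 to 48.1 CPM in lumbar/sacral visceral MNs and to 13.5 to 24.9 CPM in the others. *Slc1a2* made up nearly all of it, and in V8 *Aqp4* and *Slc1a3* were at 0 in all 3 libraries. The oligodendrocyte list (5 genes) summed to 36.2 to 54.8 and to 46.0 to 58.9 CPM. The part of the astrocyte list in the *Rxfp1* difference was not tested.

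In cholinergic interneurons, *Rxfp2* was at 13.8, 13.2 and 13.1 CPM in lumbar/sacral 1, 2 and 3. It was at 0.194, 0.395 and 0.221 CPM in the libraries labelled cervical and at 1.62, 1.20 and 1.78 CPM in those labelled thoracic. The lumbar/sacral libraries lie close together and above all others, with means of 13.3 ± 0.371 and 0.902 ± 0.721 CPM and a difference of 1.64 on the log2(CPM + 5) scale. In the same contrast 5 of 9805 genes (0.051%) passed the adjusted p of 0.05 in limma, 2 higher (0.0204%) and 3 lower (0.0306%), and 44 did with a term for the pool. The share of interneuron nuclei with a count was 3.97% ± 0.466 against 0.780% ± 0.543. Thinned to equal depth, it was 2.77% against 0.256%.

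Most of this level lay in I8. In the lumbar/sacral cord it held 168 of the 175 *Rxfp2* counts of lumbar/sacral interneurons, at 175, 209 and 161 CPM in replicates 1, 2 and 3. In the other regions I8 was at 0 CPM in the 2 libraries labelled cervical with at least 10 nuclei, and at 12.6, 2.69 and 22.7 CPM in those labelled thoracic. The means were 182 ± 24.6 CPM (n = 3) and 7.59 ± 9.90 CPM (n = 5), from 90 of 159 nuclei against 4 of 169 with a count. The share was 59.3% ± 15.1 of lumbar/sacral I8 nuclei and 4.42% ± 4.99 of the others, or 40.0% and 2.51% after thinning. I8 made up 6.53%, 5.72% and 6.82% of interneurons in lumbar/sacral 1, 2 and 3 and 0.621% to 10.8% in the other libraries. With I8 left out, chosen after its values were seen, the log2 difference of *Rxfp2* in interneurons was -0.03.

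**Figure D3:**
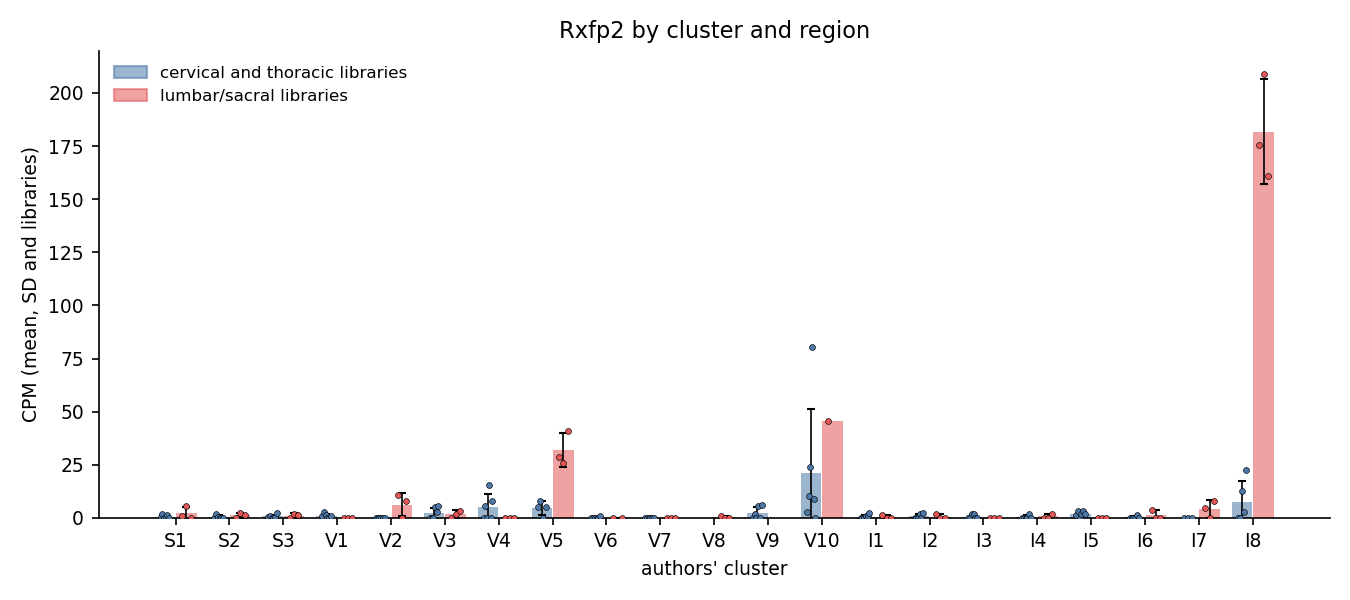
*Rxfp2* in CPM (linear axis from 0) in each of the authors' clusters, for cervical and thoracic libraries together and for lumbar/sacral libraries. Bars are means, error bars SD, and points single libraries of at least 10 nuclei; lumbar/sacral I8 is at 161 to 209 CPM, and V10, shown for 1 lumbar/sacral library, and V5 follow.

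I8 is the cluster marked by *Piezo2*, a mechanically gated channel, and *Reln*, the secreted protein reelin. Both markers were high in I8 of either place, with *Piezo2* at 1388 ± 66.4 CPM in lumbar/sacral libraries and 1592 ± 183 CPM in the others, and *Reln* at 1757 ± 234 and 1803 ± 265 CPM. The interneuron marker *Mpped2*, a phosphodiesterase, was at 898 ± 39.3 and 687 ± 172 CPM. *Pax2*, a transcription factor of interneurons, was low in lumbar/sacral I8, at 5.20 ± 2.97 CPM. *Chat* was at 100 ± 19.7 CPM and at 96.5 ± 47.1 CPM, and *Slc5a7*, the choline transporter, at 10.0 to 14.6 CPM in lumbar/sacral I8, against 147 to 175 CPM in all lumbar/sacral interneurons. *Hoxd11* was at 1.11 ± 1.92 CPM in lumbar/sacral I8. Lumbar/sacral I8 nuclei with and without *Rxfp2* had the same median depth within 2% in each library, and all of both kinds held *Piezo2*, *Reln* and *Mpped2*.

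In visceral MNs, *Rxfp2* was at 7.24 ± 1.28 CPM (5.87 to 8.39) in lumbar/sacral libraries and at 2.74 ± 1.24 CPM (1.22 to 4.89) in the others. The share of nuclei with a count was 2.79% ± 0.617 against 2.08% ± 1.01, with overlapping libraries (2.08% to 3.18% and 0.743% to 3.72%). Within pools this share was higher in lumbar/sacral libraries in 2 of 3. V5 held 34 of the 59 lumbar/sacral counts, at 28.8, 25.9 and 41.0 CPM in replicates 1, 2 and 3, against 4.49 ± 3.27 CPM (n = 4) in V5 of the other regions. V10 was at 45.6 CPM in the only lumbar/sacral library with at least 10 of its nuclei, and between 0 CPM (thoracic 3) and 80.4 CPM (thoracic 1) in the other 6 libraries. V8, the cluster with the most *Rxfp1*, had a single nucleus with *Rxfp2* among 463 in lumbar/sacral cord. V4 had no *Rxfp2* count in 160 lumbar/sacral nuclei, and 33 of 502 deeper nuclei elsewhere had one. A count of 0 allows up to 1.88% of nuclei with a count, and does not limit the nuclei that express the gene. Thinned to equal depth, the share elsewhere was 1.21%, so a difference in share was not detectable at this depth. The 33 were 21 nuclei in the library labelled thoracic 1, 8 in thoracic 3 and 4 in cervical 2, the 3 rostral libraries with *Hoxa9* at 9.35, 9.04 and 9.68 CPM. The other rostral libraries, with *Hoxa9* at 0.213 to 0.507 CPM, had no *Rxfp2* count in V4.

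**Figure D4:**
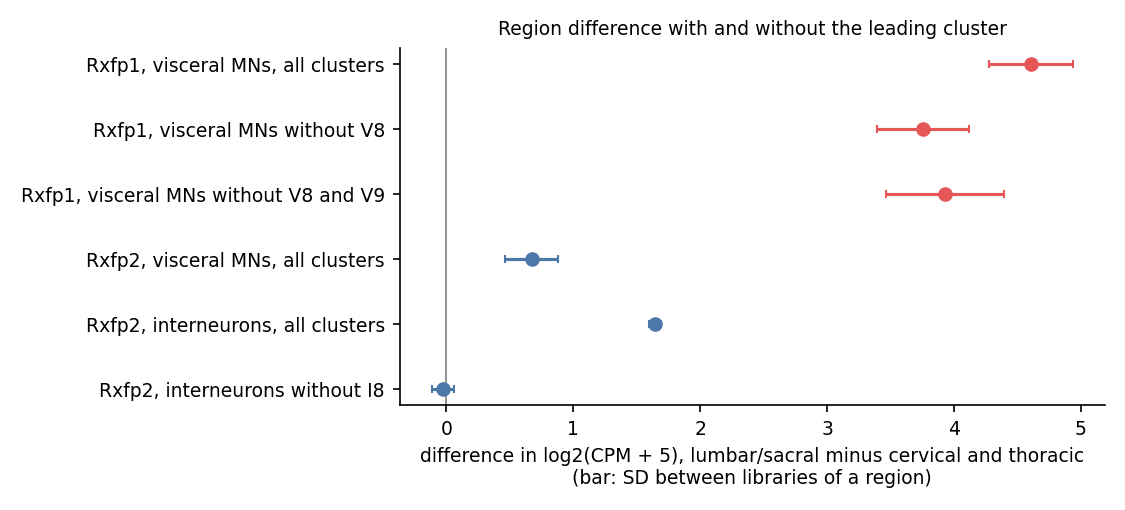
Lumbar/sacral minus cervical and thoracic differences of *Rxfp1* and *Rxfp2* in log2(CPM + 5), with all clusters of the class and without the leading cluster. Bars are 1 SD between libraries of a region; without V8 the *Rxfp1* difference is 3.75, and without I8 the *Rxfp2* difference is -0.03.

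Both receptors had a count in 11 nuclei, 1.22% of those with *Rxfp1* and 4.09% of those with *Rxfp2*, and the number that independence would give was not computed. V5 had 65 nuclei with *Rxfp1* and 42 with *Rxfp2* among 618, and none had both. V8 had 384 and 1, with 1 nucleus holding both, and I8 had 3 and 94, with none. V9 had 3 such nuclei, which were 3 of its 29 with *Rxfp1* and of its 5 with *Rxfp2*. V10 also had 3, V2 had 2, and V3 and S2 had 1 each. In V10 these were 3 of the 15 with *Rxfp1* and of the 22 with *Rxfp2*. A nucleus without a count can still hold the transcript at this depth.

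**Figure D5:**
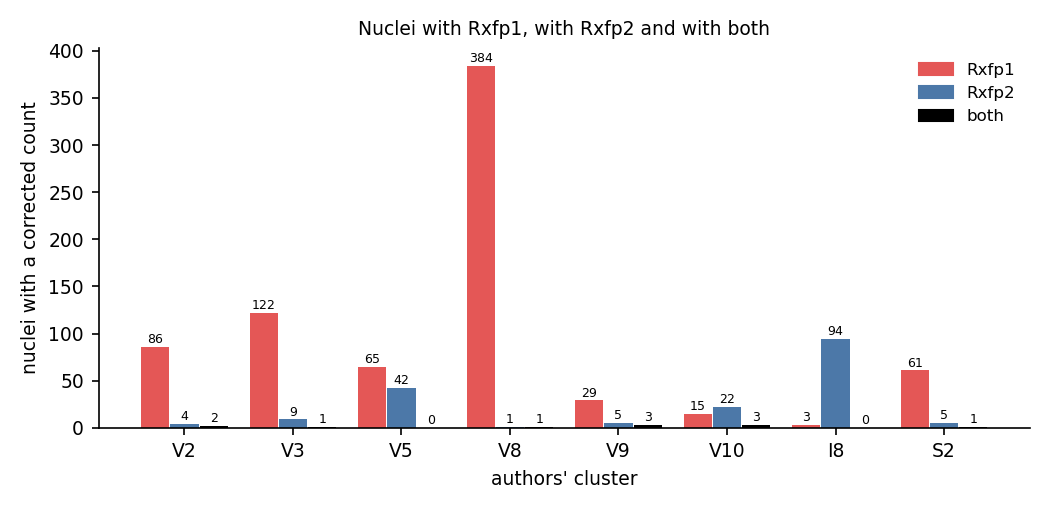
Numbers of nuclei (axis from 0) with a corrected count of *Rxfp1*, of *Rxfp2* and of both, in 8 of the authors' clusters over all libraries. V5 holds 65 and 42 nuclei with none in common.

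*Rxfp3* was rarely detected. Its 8 nuclei were 2 in V8, 1 each in V3, S1, S3 and I2 of the lumbar/sacral cord, and 1 each in V5 and V7 of the libraries labelled cervical. In lumbar/sacral visceral MNs it was at 0.323 ± 0.559 CPM, with counts in a single library. No level of *Rxfp3* can be compared between groups at this depth.

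Skeletal MNs were not used to choose the genes, and there both receptors were below the 10 CPM needed for the test across genes. *Rxfp1* was at 4.68 to 5.67 CPM in lumbar/sacral libraries and at 0.528 to 3.54 CPM in the others, a difference of 0.50 on the log2(CPM + 5) scale. How many of all genes are separated like this was not computed. By cluster, the within-pool difference was negative in S1 of replicate 3 (-1.14 CPM), S2 of replicate 1 (-1.53 CPM) and S3 of replicate 2 (-1.18 CPM). It was positive in the other pools. The median of all genes was itself higher by 0.12 in this contrast. Scaled by the median of ratios, which brings that median to -0.01, the difference was 0.43. The share of skeletal nuclei with *Rxfp1* was 2.50% ± 0.593 against 1.44% ± 0.744, which did not pass a two-sided exact permutation test over the 84 groupings of libraries (p = 0.0833, adjusted over the 3 receptors 0.125; smallest possible 0.0119). Thinned to equal depth, the shares were 1.72% and 0.627% (exact permutation p = 0.0119, the smallest possible, adjusted over the 3 receptors 0.0357). With at least 2 corrected counts required, they were 0.491% and 0.376% (exact permutation p = 0.762). These groupings treat libraries of the same mice as exchangeable. Within pools the shares with and without thinning were higher in lumbar/sacral libraries in 3 of 3, with an exact sign-flip p of 0.25, the smallest possible with 8 sign patterns. *Rxfp2* was at 1.48 ± 1.55 and 0.620 ± 0.598 CPM, with shares of 0.998% and 0.534% (exact permutation p = 0.50, adjusted 0.50). *Rxfp3* had shares of 0.0866% and 0% (exact permutation p = 0.0833, adjusted 0.125). In skeletal MNs 1 of 9999 genes (0.01%) passed in limma, and 4 did with a term for the pool. Within libraries, visceral MNs had more *Rxfp1* than skeletal MNs in 9 of 9 and more than interneurons in 8 of 9, and more *Rxfp2* than skeletal MNs in 9 of 9 and than interneurons in 6 of 9.

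The libraries labelled cervical and thoracic, a comparison the choice of genes did not use, gave no receptor a call in limma. *Rxfp1* in visceral MNs differed by 0.17 (SE 0.247) on the log2(CPM + 5) scale. Without replicate 2, whose labels *Hoxa9* contradicts, it differed by 0.38 (SE 0.162, limma adjusted p = 0.789). The value of 0.17 therefore depends on the doubted labels. *Rxfp2* in interneurons was at 0.270 ± 0.109 CPM in the libraries labelled cervical and at 1.53 ± 0.297 CPM in those labelled thoracic, lower in all 3 pools and without overlap. These values rest on 3 and 20 counts, and how many of all genes are separated like this was not computed. In replicate 2, whose labels are doubted, *Rxfp2* was at 0.395 CPM (labelled cervical) and 1.20 CPM (labelled thoracic). The direction in that pool and the lack of overlap therefore depend on the doubted labels. The log2(CPM + 5) scale compresses these low *Rxfp2* values, to a difference of -0.31 (SE 0.216), and with a pseudocount of 1 the difference was -0.99. In this contrast limma called 0 of 10031 genes (0%) in visceral MNs and 0 of 9805 (0%) in interneurons, with 160 and 189 at an unadjusted p under 0.05. The male and female pools were compared over 6 libraries with a term for region. *Rxfp1* in visceral MNs differed by -0.15 (SE 0.253, limma adjusted p = 0.822), where 5 of 10031 genes (0.0498%) passed, 4 higher (0.0399%) and 1 lower (0.00997%) in the male pool. *Rxfp2* in interneurons differed by -0.03 (SE 0.181, limma adjusted p = 0.963), where 6 of 9805 genes (0.0612%) passed, 4 higher (0.0408%) and 2 lower (0.0204%). In skeletal MNs 7 of 9999 genes passed (0.07%), 4 higher (0.04%) and 3 lower (0.03%). Without the libraries labelled cervical, which leaves 4 libraries, the counts were 339, 1387 and 1339 genes in visceral MNs, interneurons and skeletal MNs. The receptor values in that fit were -0.16 (limma adjusted p = 0.791) and -0.06 (0.882). The region term uses the doubted labels of replicate 2, the male pool. If these are exchanged, the fit without the libraries labelled cervical sets male cervical against female thoracic cord. Its counts then cannot tell region from sex or pool. With 1 pool of each sex, sex and pool cannot be told apart, and these p-values measure no spread between pools.

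Of a list of 41 genes of the relaxin pathway, 37 were measured, and *Rln3*, *Insl3* and *Rxfp4* are among those not analysed here. Of the 5 ligands 3 were measured and all were low. *Rln1*, relaxin itself in the mouse, had a count in 19 of 16042 nuclei and lay between 0.10 and 0.16 CPM in the classes. *Insl5*, the ligand of *Rxfp4*, had a count in 207 nuclei and was at 2.17 ± 0.925 CPM in visceral MNs. *Insl6*, an orphan relative, had a count in 41 nuclei. Downstream genes were well measured in visceral MNs. *Gnas*, the stimulatory G protein, was at 1193 ± 146 CPM in visceral MNs 1175 ± 116 CPM in interneurons and 306 CPM in skeletal MNs (n = 9). *Adcy2*, an adenylyl cyclase, was at 1030 ± 122 CPM in visceral MNs, 257 CPM in skeletal MNs and 84.8 CPM in interneurons. *Lgr5*, a related leucine-rich repeat receptor, was by contrast highest in skeletal MNs, at 406 CPM against 32.3 CPM in visceral MNs.

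Between lumbar/sacral and the other regions, limma called 0 of 29 tested pathway genes in visceral MNs, 0 of 28 in interneurons and 0 of 28 in skeletal MNs, beside the 4.27%, 0.051% and 0.01% of all genes. At an unadjusted p under 0.05 there were 7 (24.1%) in visceral MNs, 3 higher and 4 lower, beside 13.3% of all genes. There was 1 (3.57%) in interneurons and 1 (3.57%) in skeletal MNs, beside 3.38% and 4.02% of all genes. The median log2 difference of the list in visceral MNs was 0.02, beside 0.06 for all genes tested. With a term for the pool of mice, 2 (6.90%) passed in visceral MNs, beside 7.35% of all genes. These were *Prkacb*, a catalytic subunit of protein kinase A, at 139 to 205 CPM in lumbar/sacral libraries and 116 to 147 CPM in the others, and *Adcy7*, an adenylyl cyclase, at 28.9 to 42.7 CPM against 42.3 to 66.5 CPM. *Lgr5* was at 42.1 to 84.6 CPM against 3.21 to 32.6 CPM in visceral MNs, with a log2 difference of 1.64 and an adjusted p of 0.185 in limma. It passed without replicate 2 (limma adjusted p = 0.0359) and with equal weight of V1, V2, V3, V4 and V7 only (0.0134). These genes, and *Gnas* and *Adcy2*, were named after their values were seen.

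Across the 21 clusters, the genes most like *Rxfp1* by Pearson correlation of mean log2(CPM + 5), among 10842 genes, were *Sulf1* (r = 0.897), *Gml2* (0.881), *Mrc2* (0.858), *Gm26719* (0.836) and *Hoxd11* (0.835). *Sulf1* encodes a heparan sulfate sulfatase and *Mrc2* a collagen receptor. All 5 were highest in V8, where *Sulf1* was at 103 CPM and *Mrc2* at 90.2 CPM. The genes most like *Rxfp2* were *Mars* (r = 0.753), *Bnc2* (0.738), *Gpr137b* (0.738), *Dact3* (0.728) and *Tshz1* (0.726), all highest in I8. *Bnc2*, a zinc finger protein, was at 720 CPM there, and *Tshz1*, another, at 177 CPM. For *Rxfp3* the order rests on 8 counts and led with *Gapdhs*, *Sst*, *Sulf1*, *Rxfp1* and *Hoxd11*. The clusters share libraries and were drawn on these genes, so the correlations are descriptions.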

How the data were processed

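Single-nucleus RNA was sequenced from 9 libraries of sorted GFP+ nuclei (10x 3' chemistry). The submitters' processing notes name Cell Ranger 3.1.0, mm10 and Seurat, and the study's methods add a pre-mRNA reference, which counts introns, and SCTransform on each region apart. The deposited matrix, as its values show, holds a score, a corrected count rounded to whole numbers, for 16042 nuclei, with the authors' classes and clusters. Nuclei of a library have near-equal totals (SD between 5.85% and 10.7%), unlike raw counts, so no count model was used. The number of per-sample columns left unused was 0.

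Corrected counts were summed per library and class or cluster (at least 10 nuclei) and scaled to CPM. The limma package (version 3.58.1, R 4.3.3, trend on) was fitted to log2(CPM + 5) of the 9 sums of a class. Genes had to reach 10 CPM in 3 or more sums, with Benjamini-Hochberg adjustment over all of them and a threshold of 0.05. Fits that leave out libraries kept the genes of the full fit. The fit was tested on simulated data. Shares used exact permutation tests (Python 3.11.15, numpy 2.4.6, scipy 1.17.1). Gene positions are from GENCODE on GRCm38. Fold differences on the log2(CPM + 5) scale understate low genes. The study's methods describe SCTransform for each region. Median totals still differed between libraries of a region, at 7087, 16127 and 10256 in cervical 1, 2 and 3, and were near-equal only within a library. The part of the correction in the differences between regions was not tested.

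Groups follow the labels. The 3 libraries of a replicate come from the same pool of mice, which pairs them. Deviations of same-numbered libraries from their region mean correlated by 0.762 to 0.883, 0.343 to 0.650 and -0.136 to 0.804 in visceral MNs (replicates 1, 2 and 3), and 8 of 9 libraries were closest to one of their own number. The fit with the pool as a block was an alternative. In the region fits without the block, with 3 pools per region, p-values measure the spread between pools. The block takes out the part of that spread that the regions share. In the male against female fit the libraries of a sex come from 1 pool, so its p-values measure no spread between pools.

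The genes named are the 3 receptors, the 5 genes most correlated with each, pathway genes called in a class (none was), and ligands. Cluster, region and cell type markers come from fixed lists or the clusters' names, and other pathway genes were named after their values were seen. The members and lists were chosen with earlier results of these data known. Alternatives were other pseudocounts (1 and 20), scalings, no filter, left-out replicates, the block, equal weight of clusters, left-out clusters, thinning and at least 2 counts. Equal weight used only the clusters with enough nuclei in every library. Thinning was a single random draw. Doublets were not called.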

Additional observations from a re-analysis of the deposited data

Results flagged for a closer look

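*Rxfp2* was higher in lumbar/sacral I8 and V5 in all 3 pools of mice, by a mean of 175 ± 28.7 and 26.8 ± 6.10 CPM within pools. In 3 other clusters it was lower in lumbar/sacral libraries in all 3 pools, by a mean of -4.87 CPM in V4, -1.91 CPM in I5 and -0.927 CPM in V1. The difference in direction between the clusters was not tested, and lumbar/sacral V1, V4 and I5 held no count at all. With a level of 0 there, any count in the other libraries makes a pool lower. Over the pooled nuclei a count of 0 allows up to 7.30 CPM in V1, 3.29 CPM in V4 and 2.89 CPM in I5, so the differences in V1 and I5 lie within that limit. In V4 the share of nuclei, thinned to equal depth, gave no detectable difference.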

How the results depend on the processing

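The *Rxfp1* difference in visceral MNs was 5.44 with a pseudocount of 1, 3.29 with 20, 4.03 with clusters of equal weight, 3.93 without V8 and V9 and 3.75 without V8, against 4.61. Equal weight kept only V1, V2, V3, V4 and V7 of the visceral clusters, so V8 and V6 are among those left out. The *Rxfp2* difference in interneurons was 3.0 and 0.67 with these pseudocounts, against 1.64, and had the opposite sign in 2 settings: the value was -0.060 with clusters of equal weight, which leaves out I8, and the value was -0.029 without I8. Its cervical minus thoracic difference was -0.20 and -0.21 under the same 2 settings. Genes called between lumbar/sacral and the other regions in skeletal MNs numbered 0 with a pseudocount of 1, 12 without a filter, 4 with the replicate block and 0 to 2 when replicates or libraries were left out. In visceral MNs they numbered 737 with the replicate block, 96 with equal weight, 158 without V8 and V9, 173 without V8 and 57 to 469 with replicates or libraries left out (97, 259 and 57 without replicates 1, 2 and 3; 267 without cervical 1, and 209, 226 and 276 without lumbar/sacral 1, 2 and 3). In interneurons they numbered 2 with a pseudocount of 1, 3 with the median of ratios, 44 with the replicate block, 1 with equal weight, 9 without I8 and 0 to 9 with replicates or libraries left out. Pathway genes called in visceral MNs numbered 2 with the replicate block, 1 (*Lgr5*) with equal weight and 0 to 1 with replicates or libraries left out. The *Rxfp1* share in skeletal MNs differed by 1.09 percentage points after thinning in a single random draw (exact permutation p = 0.0119), against 1.07. It differed by 0.115 points with at least 2 counts (exact permutation p = 0.762). The block gave an exact sign-flip p of 0.25 with or without thinning, the smallest it can give. The block changed no other call, and the cause of these changes was not tested apart from the left-out cluster. Leaving out clusters, single libraries, the block with thinning and equal weight for counts were chosen after seeing the data. Shallow lumbar/sacral nuclei limit shares of low genes.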
